A study of Mus musculus with 36 samples.

Results

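Heart muscle contracts through sarcomeres, and 10 genes whose products build the Z-disc, span the sarcomere or help assemble it were followed through the differentiation of mouse embryonic stem cells with and without the long noncoding RNA LncCPR. The genes were Ttn, Mybpc3, Actn2, Hspb7, Ldb3, Csrp3, Myom1, Xirp1, Smyd1 and Nebl. They were chosen by symbol, and all 10 were found among the 37561 gene entries of each of the 6 deposited tables, with 1 entry each. LncCPR-knockout AB2.2 cells and control AB2.2 cells were each measured at days 0, 3, 5, 8, 10 and 12, with 3 libraries per line and day and 36 libraries in all. Day 0 was the undifferentiated state. From then on the cytokine LIF was withdrawn and the cells were grown as hanging-drop embryoid bodies, which were harvested whole. The AB2.2 line of mouse embryonic stem cells is the parent of the knockout, and the culture protocol given is the same for both. The knockout was made by transfecting AB2.2 cells with a pair of constructs carrying Cas9, GFP and guides on either side of the LncCPR gene. Transfected cells were sorted singly, genotyped and expanded, and the number of clones behind the 18 knockout libraries is not stated. No table entry is named LncCPR, so its own level was not analysed here.

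Within a sarcomere, thin filaments of actin are anchored at the Z-disc by alpha-actinin, thick filaments of myosin are held together at the M-band, and titin spans the distance between them. Z-disc proteins with PDZ and LIM domains bind alpha-actinin and link the contractile apparatus to signalling. Folding and modifying factors act while the sarcomere is put together, and in embryoid bodies these genes come on as cardiomyocytes form and begin to beat.

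Values are FPKM, fragment numbers divided by transcript length and by library size, which can be compared between genes. Library sums ranged over 294740 to 403675 FPKM, and 11248 to 13183 genes lay at 1 FPKM or more. The mitochondrial ribosomal RNA mt-Rnr2 was above 0 in 4 libraries, among them knockout replicate 1 of day 8 (69239 FPKM) and knockout replicate 3 of day 12 (53138 FPKM). Without the library of day 8, the 9 genes called lower at that day kept their calls. Without that of day 12, Ldb3 and Xirp1 lost theirs, as they did without other libraries. Read counts are not part of FPKM, so the depth is unknown. The labels do not say that the 3 libraries of a group came from separate cultures, so p-values measure the spread between these libraries, which may be technical. Embryoid bodies are mixtures, and in them fewer cells of a type and less RNA per cell cannot be told apart.

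For 9 of the 10 genes the RefSeq table of mouse promoters (GRCm38.p6) had 1 or more entries, 14 in all, and the 250 bases before each start were searched on both strands for 5 binding motifs of cardiac regulators. The motifs were the CArG box, bound by serum response factor, the MEF2 site, bound by myocyte enhancer factors, AGATAA for GATA factors, CATTCC for TEAD factors and AGGTGT for T-box factors. The CArG box was present in 4 of the 14 entries, against 1.47% of all 32851 promoter entries: in both entries of Ldb3, whose windows overlap and hold the same box, in Myom1 and in 1 of the 4 of Nebl. The MEF2 site was present in 2 of the 14, Ttn and Mybpc3, against 2.92% of all entries. AGATAA was present in 3 entries, of Myom1 and Nebl, CATTCC in 1, of Nebl, and AGGTGT in 2, of Csrp3 and Nebl, against 9.99%, 12.6% and 11.8% of all entries. In these genes no CArG box or MEF2 site overlapped another of the motifs. The 5 promoters below are shown because they hold a full CArG box or MEF2 site, which the capitals mark, with 1 of the 2 overlapping Ldb3 windows. In Myom1 the capitals also mark an AGATAA match on the other strand, upstream of the CArG box.
Ldb3 promoter (chr14:34588682-34588931, minus strand): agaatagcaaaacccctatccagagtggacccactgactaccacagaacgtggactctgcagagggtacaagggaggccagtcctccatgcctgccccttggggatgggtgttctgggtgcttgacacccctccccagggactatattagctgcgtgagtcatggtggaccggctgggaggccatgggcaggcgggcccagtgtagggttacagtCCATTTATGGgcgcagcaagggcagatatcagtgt
Myom1 promoter (chr17:71019307-71019556, plus strand): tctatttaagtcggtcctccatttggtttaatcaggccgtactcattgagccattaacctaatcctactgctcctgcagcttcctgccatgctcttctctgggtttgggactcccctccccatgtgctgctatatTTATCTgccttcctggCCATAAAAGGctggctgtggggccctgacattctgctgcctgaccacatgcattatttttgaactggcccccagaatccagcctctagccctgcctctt
Nebl promoter (chr2:17462857-17463106, minus strand): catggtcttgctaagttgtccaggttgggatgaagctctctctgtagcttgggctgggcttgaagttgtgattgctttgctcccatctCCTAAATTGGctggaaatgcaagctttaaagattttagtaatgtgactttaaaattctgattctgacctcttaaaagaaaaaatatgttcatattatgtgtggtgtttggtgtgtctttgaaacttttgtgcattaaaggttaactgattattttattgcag
Ttn promoter (chr2:76982548-76982797, minus strand): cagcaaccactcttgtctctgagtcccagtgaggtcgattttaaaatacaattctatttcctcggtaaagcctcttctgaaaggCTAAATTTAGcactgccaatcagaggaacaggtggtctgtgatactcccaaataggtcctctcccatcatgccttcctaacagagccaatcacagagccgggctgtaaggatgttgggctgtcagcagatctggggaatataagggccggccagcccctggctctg
Mybpc3 promoter (chr2:91117894-91118143, plus strand): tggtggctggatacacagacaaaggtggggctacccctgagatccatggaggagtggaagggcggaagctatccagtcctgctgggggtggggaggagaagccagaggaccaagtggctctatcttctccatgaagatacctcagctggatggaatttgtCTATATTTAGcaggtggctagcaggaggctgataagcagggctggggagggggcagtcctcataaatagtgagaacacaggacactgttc
The CArG box lay at positions -35 to -26 relative to the start in Ldb3, at -99 to -90 in Myom1 and at -162 to -153 in Nebl. The MEF2 site lay at -166 to -157 in Ttn and at -90 to -81 in Mybpc3. A match is a description of the sequence only.

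During the first 5 days all 10 genes were near the lower end of the scale in both lines. Their 180 values at days 0, 3 and 5 had a maximum of 1.81 FPKM, and 14 of them were listed at 0. Genes were tested where the mean of the 6 libraries of a day was 1 FPKM or more, with limma on log2(FPKM + 1) and Benjamini-Hochberg adjustment over all genes tested, and were called at an adjusted p under 0.05. Ttn passed this filter at day 0, Actn2 and Ldb3 at day 3, and no member at day 5, and 0 of these were called. At day 0, 14.5% of 12197 genes were called, and at day 3, 1.75% of 11976. In simulated data, changes were put only into genes more abundant than these members. There, 92% of changes of 1 log2 unit were recovered at day 0 and 25% at day 3. These rates do not carry over to members near 1 FPKM, so the lack of a call on either day says little about changes of that size. Ttn was listed at 1.35, 1.67 and 1.61 FPKM in knockout stem cells, against 0.864, 0.913 and 0.939 FPKM in control stem cells. The log2 fold change was 0.41 (SE 0.12, limma adjusted p = 0.0541). Ttn also stayed uncalled on leaving out any 1 of the 6 libraries. Ttn was called higher at day 0 with the libraries rescaled by median ratios (limma adjusted p = 0.0492) and without the trend (0.0212).

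Actn2 already had a low level before any muscle forms. At day 3 it measured 1.28 ± 0.0457 FPKM in knockout and 1.31 ± 0.285 FPKM in control embryoid bodies (SD, n = 3 each), and the log2 fold change was -0.01 with an interval of -0.47 to 0.44 (limma adjusted p = 0.987). Ldb3 at day 3 gave 1.07, 1.81 and 1.09 FPKM in knockout and 0.590, 0.760 and 1.47 FPKM in control bodies, and the libraries overlapped (log2 fold change 0.27, SE 0.23, limma adjusted p = 0.734). The filter left the remaining early values untested. Some of these low values lay apart between the lines, in both directions. Actn2 and Ldb3 at day 0, Csrp3 at day 3 and Smyd1 at day 5 were lower in all knockout libraries. Smyd1 at day 0, Xirp1 at day 3 and Ldb3 at day 5 were higher. Actn2 at day 0 lay between 0.310 and 0.462 FPKM in knockout, and between 0.695 and 1.02 FPKM in control cells. How many of all genes lay apart on these days was not counted. Hspb7, Csrp3 and Xirp1 reached no more than 0.132, 0.213 and 0.0734 FPKM in any library of these 3 days.

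From day 8 the genes were high in control embryoid bodies and lower in the knockout. All 10 passed the filter at days 8, 10 and 12, Xirp1 at all 3 days and Hspb7 at day 8 with a knockout mean under 1 FPKM. At day 8, 9 of the 10 were called lower in the knockout and 0 higher, where 2.00% of 12695 genes tested were lower and 1.28% higher. At day 10, 9 were called lower and 1 higher, where 5.12% of 12938 genes were lower and 15.0% higher. At day 12, 8 were called lower and 0 higher, where 3.48% of 13089 genes were lower and 3.22% higher. Without the filter on low values, which tests more genes, 4 were called lower at day 12, and Actn2, Ldb3, Myom1 and Xirp1 were not. All 3 knockout libraries lay below all 3 controls for 9, 9 and 8 of the 10 genes on these days, as for 8.48%, 9.47% and 11.8% of all genes tested. The median log2 fold change over all genes tested was 0.09 at day 8, 0.17 at day 10 and 0.05 at day 12. The gene never called lower was Ttn, whose values are described separately because many are listed at 0. The gene lost at day 12 was Smyd1.

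**Figure D1:**
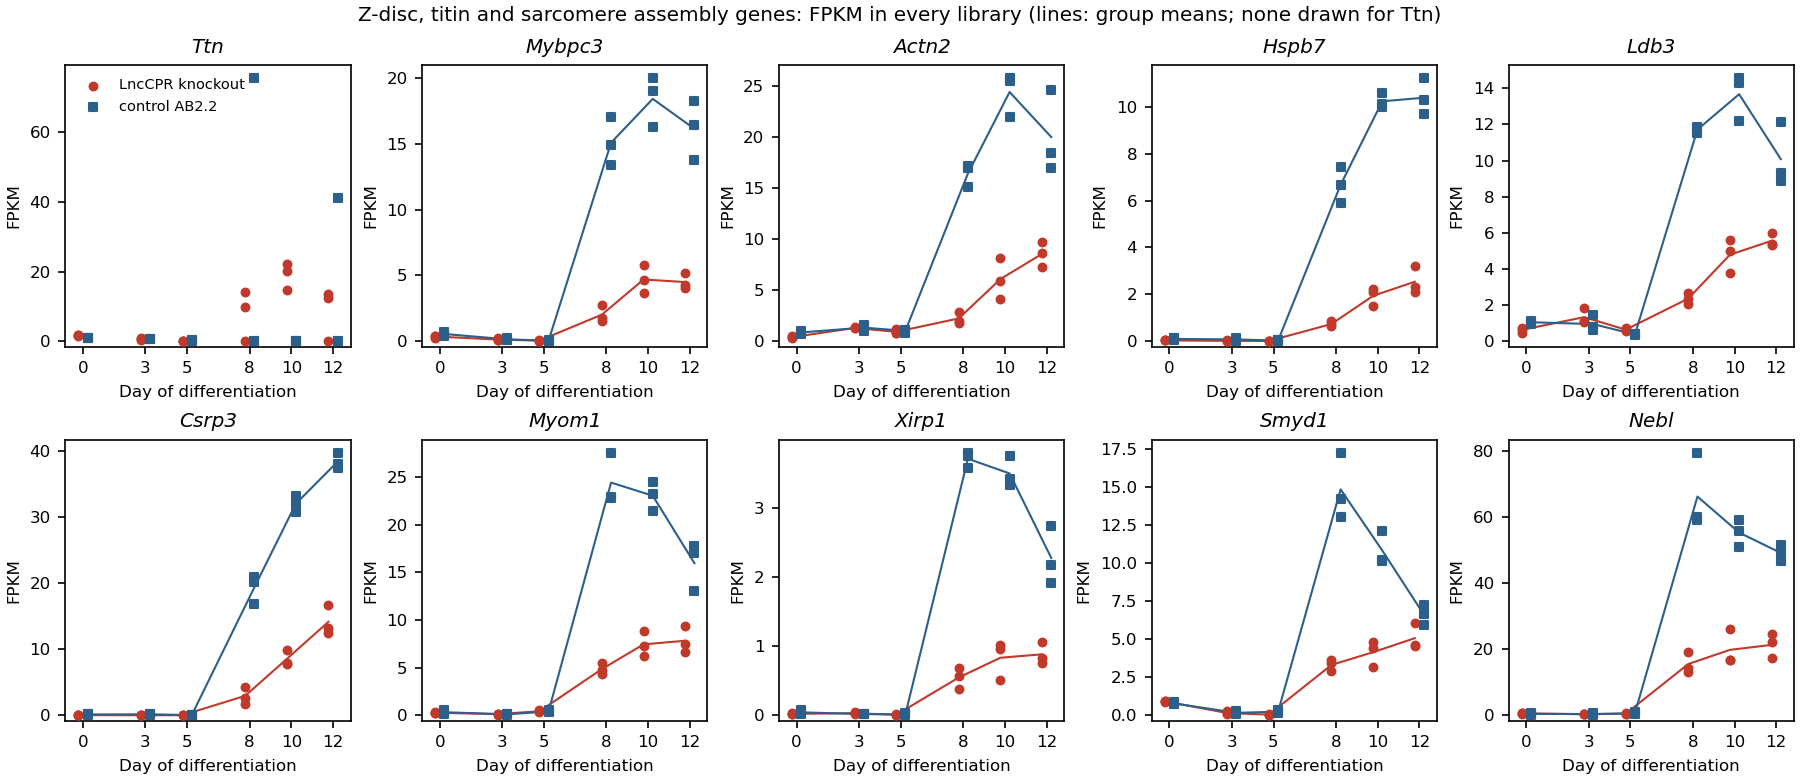
FPKM of the 10 genes in every library against day of differentiation, with knockout libraries as red circles left of control libraries as blue squares and lines through the group means (none for Ttn). All genes stay at or below 1.81 FPKM to day 5, and from day 8 the knockout libraries lie below the controls for the 9 genes other than Ttn, except Smyd1 at day 12, where the groups overlap.

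Actn2, alpha-actinin 2, crosslinks thin filaments at the Z-disc of striated muscle. Its level at day 8 was 1.99, 1.80 and 2.86 FPKM in knockout bodies, against 15.1, 17.1 and 16.9 FPKM in control bodies. All knockout libraries lay far below all controls, and Actn2 was 13.5% of the control mean (log2 fold change -2.45, SE 0.17, limma adjusted p = 4.52e-05). At day 10 it measured 4.12, 8.14 and 5.92 FPKM in the knockout, against 25.5, 21.9 and 25.7 FPKM in the control. At day 12 it measured 9.70, 7.25 and 8.66 FPKM in the knockout, against 18.4, 17.0 and 24.5 FPKM in the control. The groups did not overlap on either day, and the log2 fold changes were -1.88 and -1.13 (limma adjusted p = 3.46e-05 and 0.00484). Without the filter the day 12 call was lost (adjusted p = 0.0583).

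Ldb3 encodes a PDZ and LIM protein, also called Cypher or ZASP, that binds alpha-actinin at the Z-disc. At day 8 it measured 2.33, 2.05 and 2.68 FPKM in knockout bodies, against 11.7, 11.9 and 11.5 FPKM in control bodies. The control libraries were nearly equal, and all lay above the knockout (log2 fold change -1.93, SE 0.15, limma adjusted p = 0.000104). At day 10 it measured 3.75, 5.61 and 4.99 FPKM in the knockout, against 14.3, 14.6 and 12.2 FPKM in the control (log2 fold change -1.35, limma adjusted p = 0.000119). At day 12 Ldb3 measured 5.38, 5.32 and 5.96 FPKM in the knockout, against 8.84, 9.28 and 12.1 FPKM in the control. The gap was narrower and the groups still did not overlap (log2 fold change -0.75, SE 0.14, limma adjusted p = 0.0184). That day 12 call was lost without any 1 of the 3 knockout libraries, at an adjusted p of 0.0519 to 0.0657, and without the filter (0.0771).

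Csrp3, muscle LIM protein, sits at the Z-disc and takes part in sensing stretch. Day 8 values of Csrp3 were 2.69, 4.36 and 1.77 FPKM in knockout bodies, against 20.2, 21.0 and 16.8 FPKM in control bodies. At day 10 they were 7.79, 9.93 and 7.86 FPKM in the knockout, against 32.1, 33.2 and 30.8 FPKM in the control. Day 12 values of Csrp3 were 16.7, 12.5 and 13.2 FPKM in the knockout, against 39.7, 38.0 and 37.4 FPKM in the control. The groups were apart on all 3 days, at 15.2%, 26.6% and 36.9% of the control mean (log2 fold changes -2.41, -1.80 and -1.39, limma adjusted p = 0.000314, 4.57e-06 and 0.000585). Nebl encodes nebulette, a cardiac relative of nebulin that binds actin near the Z-disc, and also a LIM-containing isoform found outside heart muscle. Gene-level FPKM does not separate these isoforms.

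Nebl was the most abundant of the 9 genes in both lines on all 3 days. At day 8 it measured 13.0, 19.1 and 14.4 FPKM in knockout bodies, against 59.0, 79.5 and 60.1 FPKM in control bodies. At day 10 Nebl measured 16.8, 16.6 and 26.0 FPKM in the knockout, against 50.9, 59.2 and 55.9 FPKM in the control. At day 12 it measured 24.5, 22.2 and 17.2 FPKM in the knockout, against 51.4, 46.8 and 49.2 FPKM in the control. No knockout library reached a control library (log2 fold changes -2.03, -1.46 and -1.18, limma adjusted p = 0.000195, 9.87e-05 and 0.00169).

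Mybpc3, cardiac myosin-binding protein C, binds thick filaments and titin and tunes the cross-bridge cycle. Day 8 values of Mybpc3 were 1.52, 1.79 and 2.73 FPKM in knockout bodies, against 13.4, 17.0 and 14.9 FPKM in control bodies. At day 10 they were 3.63, 5.77 and 4.66 FPKM in the knockout, against 20.0, 19.0 and 16.3 FPKM in the control. Day 12 values of Mybpc3 were 5.15, 4.06 and 4.25 FPKM in the knockout, against 18.3, 13.8 and 16.4 FPKM in the control. The groups did not overlap on any of these days, with Mybpc3 at 13.3% of the control mean at day 8, 25.4% at day 10 and 27.8% at day 12. The log2 fold changes on the 3 days were -2.43, -1.78 and -1.64 (limma adjusted p = 9.94e-05, 1.84e-05 and 0.000585).

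Myom1, myomesin 1, links neighbouring thick filaments and titin at the M-band. At day 8 it measured 4.36, 4.74 and 5.45 FPKM in knockout bodies, against 22.8, 27.5 and 22.9 FPKM in control bodies. At day 10 Myom1 measured 6.24, 8.80 and 7.28 FPKM in the knockout, against 24.5, 23.2 and 21.4 FPKM in the control. At day 12 it measured 9.36, 6.59 and 7.51 FPKM in the knockout, against 17.0, 13.0 and 17.8 FPKM in the control. The groups did not overlap on any of the 3 days, and Myom1 was at 19.9%, 32.3% and 49.0% of the control mean (log2 fold changes -2.12, -1.52 and -0.94, limma adjusted p = 4.52e-05, 3.03e-05 and 0.0111). The day 12 call of Myom1 was lost without the filter (adjusted p = 0.0738). In GRCm38 Myom1 overlaps Myl12a on the other strand, listed here as 2900073G15Rik, and whether counting used strand is not stated, so reads of the overlap cannot be told apart. The overlapping gene was not called on any of these days (78.4 ± 1.62 FPKM in knockout and 71.1 ± 4.31 FPKM in control bodies at day 8, SD, n = 3 each).

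Hspb7 encodes a small heat shock protein of heart muscle that restrains the growth of thin filaments. Day 8 values of Hspb7 were 0.842, 0.634 and 0.709 FPKM in knockout bodies, against 6.69, 5.88 and 7.46 FPKM in control bodies. Values at day 10 were 1.49, 2.22 and 2.09 FPKM in the knockout, against 9.98, 10.1 and 10.6 FPKM in the control. Day 12 values of Hspb7 were 3.19, 2.11 and 2.30 FPKM in the knockout, against 9.69, 10.3 and 11.2 FPKM in the control. Hspb7 was the lowest of the 9 genes relative to the control on each day, at 10.9%, 18.9% and 24.4% of the control mean. The log2 fold changes were -2.15, -1.95 and -1.70 (limma adjusted p = 0.00011, 6.9e-06 and 0.000585).

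Xirp1 encodes Xin, an actin-binding repeat protein of intercalated discs, and was the least abundant of the 9 genes in both lines. At day 8 it measured 0.376, 0.576 and 0.689 FPKM in knockout bodies, against 3.75, 3.58 and 3.80 FPKM in control bodies. At day 10 Xirp1 measured 0.518, 1.02 and 0.964 FPKM in the knockout, against 3.33, 3.74 and 3.42 FPKM in the control. At day 12 it measured 0.824, 0.759 and 1.06 FPKM in the knockout, against 2.18, 1.91 and 2.74 FPKM in the control. The groups did not overlap, and the log2 fold changes were -1.61, -1.31 and -0.80 (limma adjusted p = 0.000804, 0.000403 and 0.0365). The day 12 call was lost on leaving out any 1 of the 6 libraries, at an adjusted p of 0.0523 to 0.113, without the filter (0.103) and under the replicate block (0.0651). On this scale the added 1 FPKM understates the change of so low a gene, which stood at 14.7% of the control mean at day 8 and 38.8% at day 12. In GRCm38 Xirp1 overlaps Cx3cr1 on the same strand, and reads of the overlap cannot be told apart. Cx3cr1 reached at most 0.697 FPKM in the libraries of days 8, 10 and 12.

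Smyd1, a lysine methyltransferase of striated muscle needed for sarcomere assembly, had the narrowest gap between the lines at day 12. Day 8 values of Smyd1 were 2.91, 3.62 and 3.41 FPKM in knockout bodies, against 13.0, 17.3 and 14.3 FPKM in control bodies. Values at day 10 were 3.16, 4.85 and 4.45 FPKM in the knockout, against 12.1, 10.2 and 10.2 FPKM in the control. Both days were called lower without overlap (log2 fold changes -1.87 and -1.21, limma adjusted p = 0.000172 and 0.000348). Day 12 values of Smyd1 were 6.04, 4.58 and 4.60 FPKM in the knockout, against 6.66, 5.93 and 7.24 FPKM in the control. The groups overlapped, and the log2 fold change was -0.33 with an interval of -0.66 to 0.00 (SE 0.15, limma adjusted p = 0.209). Smyd1 overlaps Krcc1 on the other strand in GRCm38, and the same limit on reads of the overlap holds. Krcc1 was not called at any of the 3 days (38.0 ± 0.932 FPKM in knockout and 33.2 ± 1.34 FPKM in control bodies at day 12, SD, n = 3 each).

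**Figure D2:**
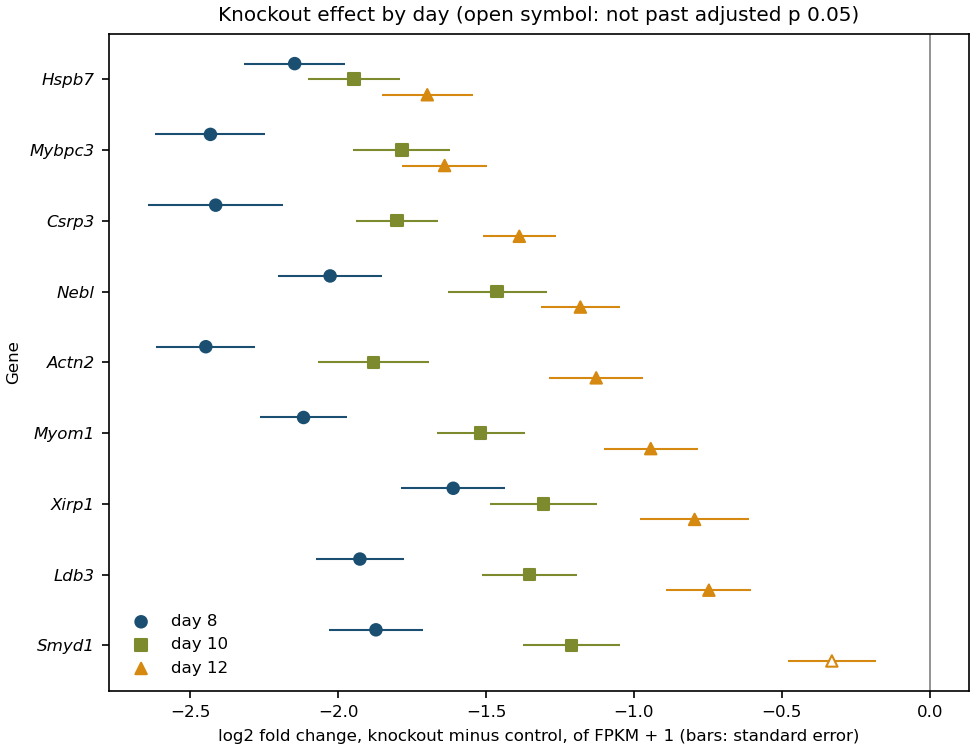
Log2 fold change, knockout minus control, on FPKM + 1 for 9 genes at days 8, 10 and 12, with bars of 1 standard error and an open symbol where the adjusted p missed 0.05. Every gene lies nearer 0 at day 12 than at day 8, and Smyd1 at day 12, at -0.33, is the open symbol.

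Ttn encodes titin, the giant spring of the sarcomere. In the knockout bodies it was listed at 9.81, 14.2 and 0 FPKM at day 8, at 14.6, 20.1 and 22.3 FPKM at day 10, and at 13.5, 12.4 and 0 FPKM at day 12. In the control bodies it was listed at 75.5, 0 and 0 FPKM at day 8, at 0, 0 and 0 FPKM at day 10, and at 41.1, 0 and 0 FPKM at day 12. Listed zeros made up 2 of 9 knockout and 7 of 9 control libraries, and 0 of the 162 values of the other 9 genes in the same 18 libraries.

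The other sarcomere genes were abundant in the control libraries with Ttn at 0. Actn2 lay between 16.9 and 25.7 FPKM in those 7 libraries, and between 15.1 and 18.4 FPKM in the 2 control libraries with Ttn above 0. In the 18 libraries of days 0, 3 and 5, none was listed at 0 for Ttn, although the level was no more than 1.67 FPKM. Over days 8, 10 and 12, 7 genes were listed at 0 in some libraries and at 5 FPKM or more in all the rest. Besides Ttn, at 9 of 18 libraries, they were mt-Rnr2 at 16, 4930500J02Rik at 9, Smc3 at 2, and Reep3, Rock2 and Jmjd1c at 1 each. A listed 0 can be a failed estimate or an absent transcript, and for the genes besides Ttn this was not examined. Which line holds their zeros is not broken down here. No fold change is given for Ttn against a group listed at 0.

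With the zeros in place Ttn was counted as higher at day 10, against 3 controls at 0. It was not called at day 8 or day 12 (limma adjusted p = 0.928 and 0.795). With the zeros taken as missing, 1 control library is left at days 8 and 12 and none at day 10, so no direction is read for Ttn from the values above 0. In the 2 control libraries with Ttn above 0, at 75.5 and 41.1 FPKM, Actn2 was listed at 15.1 and 18.4 FPKM.

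For 5 of the 10 genes the gap between the lines was narrower at day 12 than at day 8 by a test of the change itself. A limma model over the 18 libraries of days 8, 10 and 12 tested the difference of the effects found within each day's table. Because 1 FPKM is added before the log, a scaling shared by 1 table still bears on the effects of low genes. By the F test, 4 of the 10 genes differed between days, where 1.75% of 12932 genes did. They were Smyd1, Ldb3, Myom1 and Actn2 (limma adjusted p = 0.00199, 0.0106, 0.0158 and 0.0293). This count ran from 2 to 4 on leaving out 1 library, and was 2 without control replicate 2 of day 8.

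In the contrast of day 12 minus day 8, 5 of the 10 were called, all above 0, where 1.05% of all genes were called above 0. The log2 difference was 1.54 for Smyd1, 1.32 for Actn2, 1.18 for Ldb3, 1.17 for Myom1 and 1.03 for Csrp3 (limma adjusted p = 0.000594, 0.00943, 0.00309, 0.00478 and 0.0348). The Csrp3 call was lost on leaving out 9 of the 18 libraries singly. It was also lost without the filter on low values (limma adjusted p = 0.0930). Hspb7, Mybpc3, Xirp1 and Nebl were not called, at 0.45, 0.79, 0.82 and 0.85 (limma adjusted p = 0.361, 0.105, 0.0572 and 0.0908). Xirp1 was called on rescaling (0.0363) and Nebl under the replicate block (0.0464). The order of these sizes belongs to the scale with 1 FPKM added, which compresses low genes: in percent of the control mean, Hspb7 stood at 10.9% at day 8 and 24.4% at day 12, and Nebl at 23.5% and 43.4%.

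The levels behind these differences did not move alike in the lines. The tables of different days may have been normalized separately, so levels across days are set side by side and were not tested. Smyd1 averaged 3.31, 4.15 and 5.07 FPKM in the knockout at days 8, 10 and 12, and 14.9, 10.8 and 6.61 FPKM in the control. Its day 12 mean was 153% of its day 8 mean in the knockout and 44.5% in the control. Xirp1, Myom1, Nebl and Ldb3 were likewise higher at day 12 than at day 8 in the knockout, at 137% to 236%, and lower in the control, at 61.3% to 86.0%.

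Csrp3 was higher at day 12 than at day 8 in both lines, at 481% of its day 8 mean in the knockout and 198% in the control. Hspb7 stood at 348% in the knockout and 156% in the control. Mybpc3 and Actn2 were near level in the control, at 107% and 122%, and at 223% and 385% in the knockout. All 9 genes had a higher knockout mean at day 12 than at day 8.

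The order of abundance was broadly shared. In knockout bodies at day 12 it ran Nebl, Csrp3, Actn2, Myom1, Ldb3, Smyd1, Mybpc3, Hspb7 and Xirp1, from 21.3 down to 0.882 FPKM. The neighbours Actn2 and Myom1, Ldb3 and Smyd1, and Smyd1 and Mybpc3 overlapped in their libraries. In control bodies at day 12 it ran Nebl, Csrp3, Actn2, Mybpc3, Myom1, Hspb7, Ldb3, Smyd1 and Xirp1, from 49.1 down to 2.28 FPKM. There Actn2 and Mybpc3, Mybpc3 and Myom1, and Hspb7 and Ldb3 overlapped.

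The knockout level relative to the control was set beside that of other cardiomyocyte genes. As a yardstick, 5 abundant cardiomyocyte genes served: Myh6, Tnnt2, Actc1, Tnnc1 and Myl7, which encode the alpha heavy chain of cardiac myosin, cardiac troponin T, cardiac actin, cardiac troponin C and the atrial regulatory light chain. The median knockout level of the 9 genes was 15.2% of control at day 8 (range 10.9% to 23.5%), 26.6% at day 10 (18.9% to 38.3%) and 42.8% at day 12 (24.4% to 76.7%). That of the 5 yardstick genes was 17.3%, 26.6% and 38.5%. The thick filament genes had medians of 17.9%, 28.0% and 32.5%, and the thin filament genes 34.4%, 69.9% and 53.6%.

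**Figure D3:**
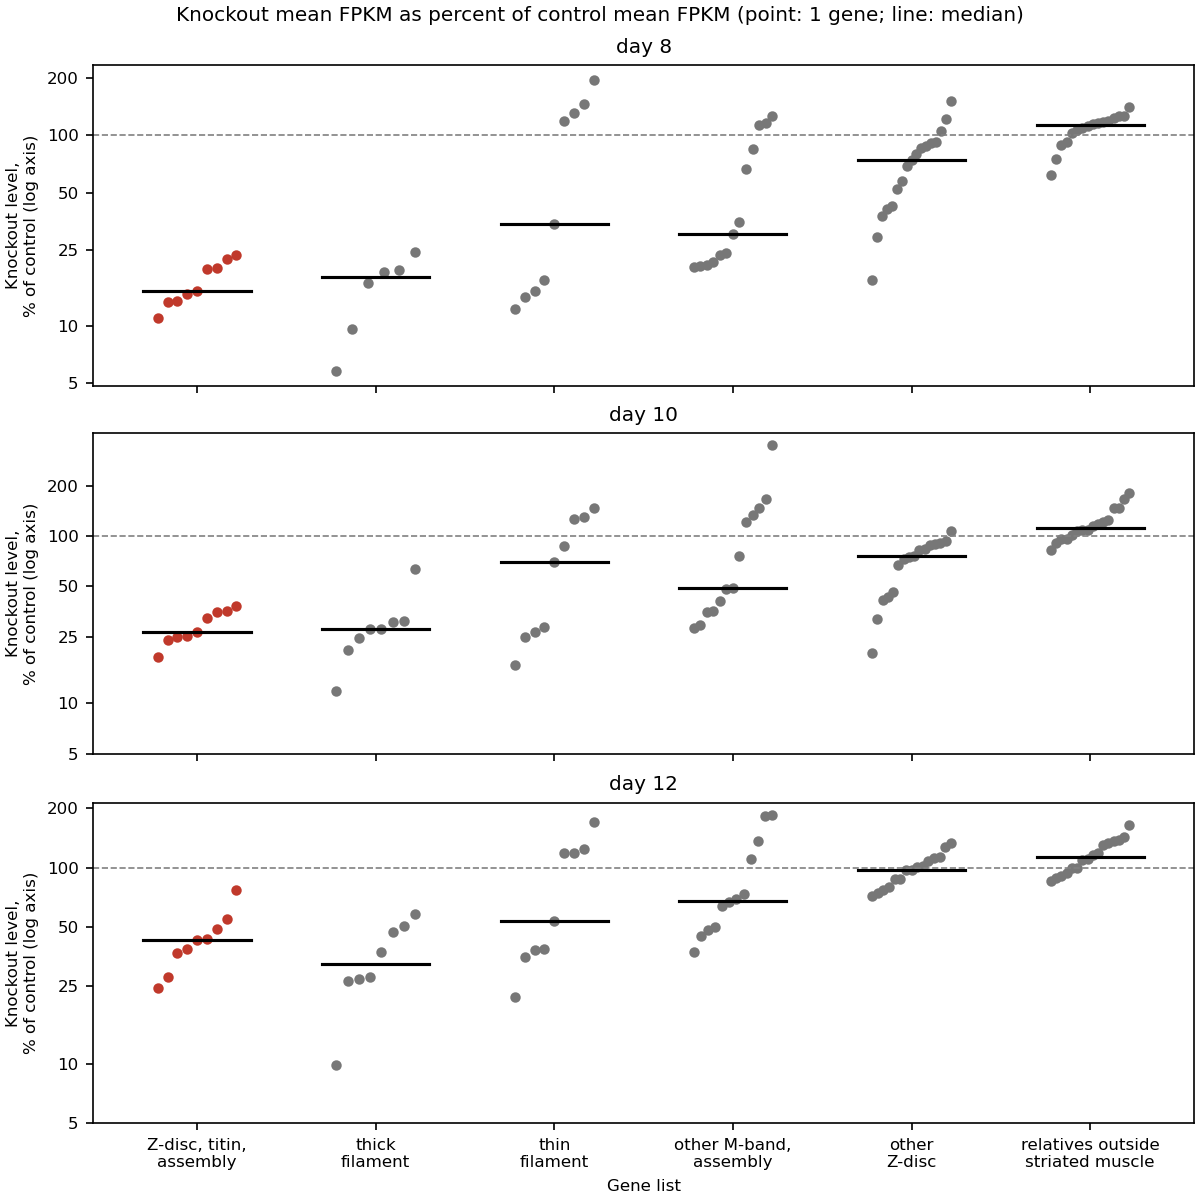
Knockout mean FPKM as percent of the control mean (log axis) at days 8, 10 and 12, with 1 point per gene, a line at each list's median and a dashed line at 100%. The 9 Z-disc and sarcomere assembly genes, in red and without Ttn, lie between 10.9% and 76.7%, and their relatives outside striated muscle scatter around 112% to 113%.

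Relative to the yardstick in the same library, the genes differed. The ratio of a gene to the geometric mean of the 5 was taken in each library, and groups were compared by whether their 3 ratios overlapped. Most genes of the embryoid body are not cardiac, so 98.0%, 95.3% and 87.6% of all genes tested lay higher relative to this yardstick in the knockout without overlap at days 8, 10 and 12. Of the 9 genes, 2 lay higher in this way at day 8, Smyd1 and Nebl, and 7 overlapped. At days 10 and 12 Smyd1 was the 1 gene higher, 3 were lower and 5 overlapped.

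The log2 ratio of Smyd1 to the yardstick, knockout minus control, was 0.38, 0.26 and 0.68 on the 3 days. That of Hspb7 was -0.77 at day 10 and -0.98 at day 12, and that of Mybpc3 was -0.34 at day 10 and -0.77 at day 12, without overlap. Xirp1 at day 10 and Csrp3 at day 12 also lay lower without overlap, at -0.47 and -0.38. Of all genes tested, 0.110% at day 8, 0.325% at day 10 and 0.886% at day 12 lay lower relative to the yardstick without overlap. The yardstick genes themselves differed at day 12. Tnnc1 averaged 38.9 FPKM in the knockout and 31.3 FPKM in the control, while Myh6 averaged 41.0 ± 7.78 FPKM in the knockout and 155 ± 15.8 FPKM in the control (SD, n = 3 each). Tnnc1 has 2 entries in the tables, so its reads could be split between them. Over the 36 libraries the entry used averaged 16.3 FPKM and the other 0.685 FPKM.

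**Figure D4:**
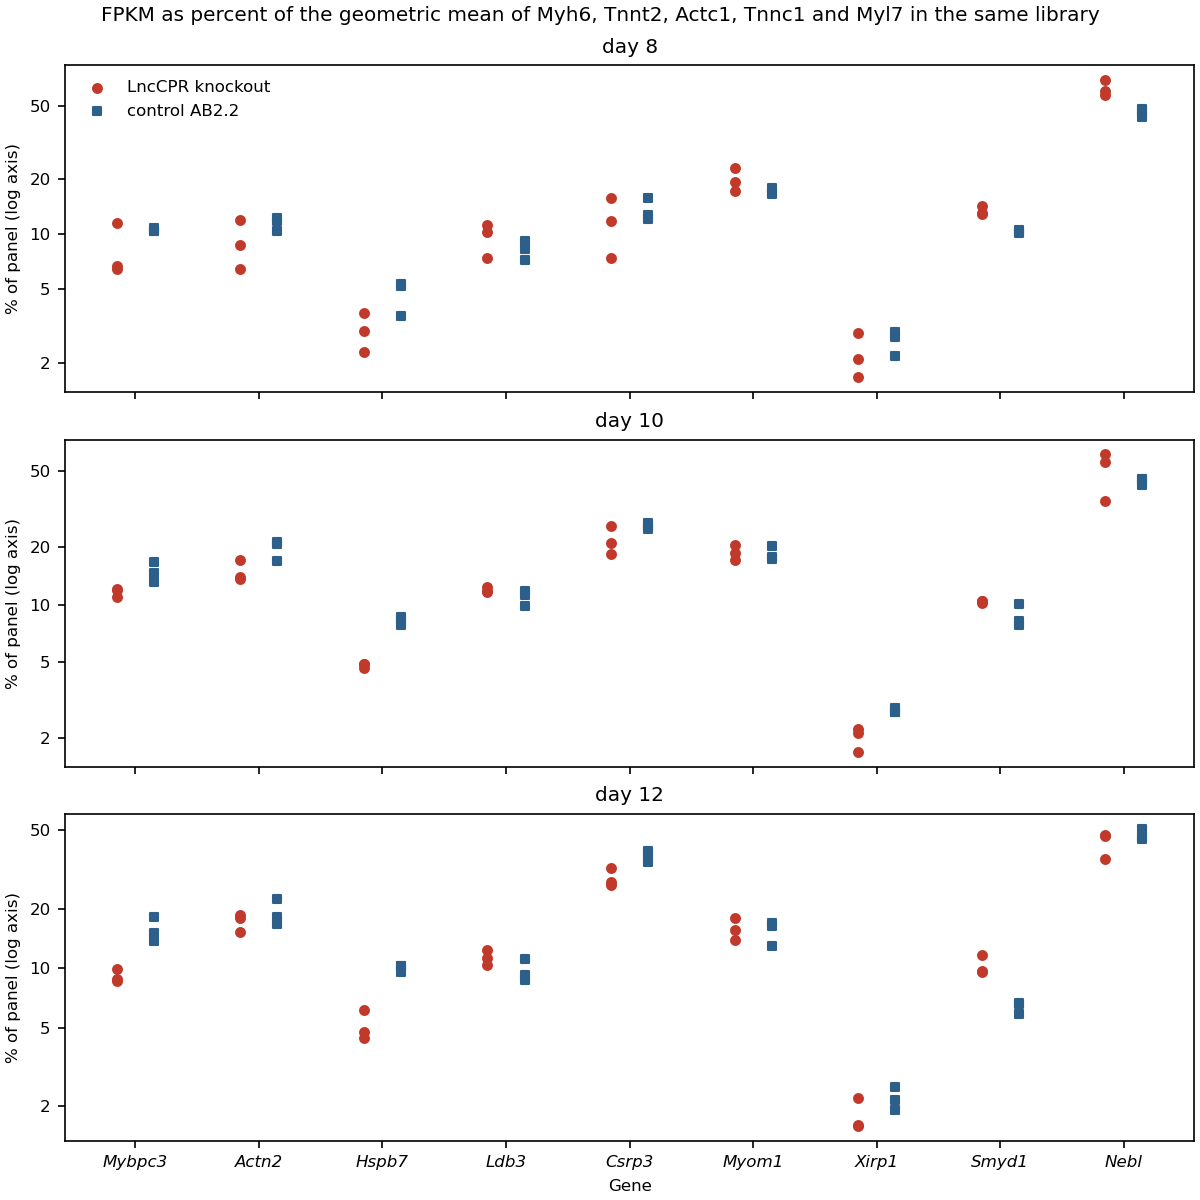
FPKM of 9 genes as percent of the geometric mean of Myh6, Tnnt2, Actc1, Tnnc1 and Myl7 in the same library (log axis) at days 8, 10 and 12, with knockout libraries as red circles left of control libraries as blue squares. Smyd1 is higher in the knockout on all 3 days, and Hspb7 and Mybpc3 are lower without overlap at days 10 and 12.

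Relatives of these genes outside striated muscle were counted for comparison. Of 16 such genes, 0 were called lower on each of the 3 days, where 2.00%, 5.12% and 3.48% of all genes were. At days 8, 10 and 12, 0, 3 and 2 were called higher, where 1.28%, 15.0% and 3.22% of all genes were. The counts of days 8 and 10 are near the background. The 2 of 16 at day 12 are a larger share than that of all genes, though from few genes. Actn2 made up 1.62% ± 0.171 of all alpha-actinin FPKM in knockout and 12.6% ± 1.69 in control bodies at day 8, and 5.50% ± 0.729 in knockout and 15.3% ± 3.39 in control bodies at day 12 (SD, n = 3 each). Actn1, a non-muscle alpha-actinin, averaged 82.3 ± 3.07 FPKM in knockout and 61.3 ± 1.47 FPKM in control bodies at day 12 (SD, n = 3 each), with a log2 fold change of 0.42 (limma adjusted p = 0.0281).

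Csrp3 is a minor share of its family. It made up 2.21% ± 0.254 of the FPKM of the 3 CSRP genes in knockout and 8.61% ± 1.20 in control bodies at day 12 (SD, n = 3 each). Its relative Csrp2 was called higher at that day, at 540 ± 42.8 FPKM in knockout and 328 ± 49.7 FPKM in control bodies (SD, n = 3 each, log2 fold change 0.72, limma adjusted p = 0.0179). Ldb3 made up 5.16% ± 0.618 of its family of 6 PDZ and LIM genes in knockout and 10.3% ± 1.75 in control bodies at day 12, and 2.98% ± 0.624 in knockout and 12.7% ± 0.530 in control bodies at day 8 (SD, n = 3 each).

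The other sarcomere genes were counted from lists of related genes. At days 8, 10 and 12, 2.00%, 5.12% and 3.48% of all genes tested were called lower, and 1.28%, 15.0% and 3.22% higher. These shares are the background for this and the following lists. Of 27 other Z-disc genes, 17, 16 and 15 passed the filter at days 8, 10 and 12, and 6, 7 and 1 were called lower and 0 higher. The most abundant of them were mostly not called: Bag3, a co-chaperone, and Pdlim5, another PDZ and LIM protein, were not called on any of the 3 days. Ankrd1, a stress-responsive titin-binding protein, averaged 20.2 ± 0.168 FPKM in knockout and 43.6 ± 9.31 FPKM in control bodies at day 10 (SD, n = 3 each, log2 fold change -1.05, limma adjusted p = 0.000702), and was not called at days 8 and 12. Obsl1 was the 1 gene called lower at day 12, at 22.9 ± 1.06 FPKM in knockout and 30.8 ± 0.545 FPKM in control bodies (SD, n = 3 each, log2 fold change -0.41, limma adjusted p = 0.0362).

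Of 20 other M-band and assembly genes, 13, 13 and 12 were tested, and 8, 7 and 5 were called lower and 0, 3 and 0 higher. The 3 of 13 higher at day 10 stand beside 15.0% of all genes. Trim55, a muscle ubiquitin ligase, averaged 3.13 ± 0.618 FPKM in knockout and 15.3 ± 2.24 FPKM in control bodies at day 8 (SD, n = 3 each, log2 fold change -1.99, limma adjusted p = 0.000208). It was called lower at days 10 and 12 as well. Unc45b, a myosin chaperone, averaged 2.66 ± 0.230 FPKM in knockout and 11.1 ± 1.35 FPKM in control bodies at day 8 (SD, n = 3 each, limma adjusted p = 0.000235). Of the thick filament genes, 6 of 6 tested were called lower at day 8, 7 of 8 at day 10 and 6 of 8 at day 12. Of the thin filament genes, 5 of 9 tested were called lower and 1 higher on each day.

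Cardiac regulators were lower as well at days 8 and 10, and already at day 5. Of 11 tested at day 5, 7 were called lower and 0 higher, where 413 of all 12447 genes tested were called lower and 880 higher. Their median log2 fold change was -1.325, against 0.13 over all 12447 genes tested. Of 15 tested, 9, 9 and 4 were called lower at days 8, 10 and 12, and 0, 0 and 1 higher. Hand2 averaged 9.99 ± 2.70 FPKM in knockout and 36.9 ± 1.93 FPKM in control bodies at day 8 (SD, n = 3 each, log2 fold change -1.82, limma adjusted p = 0.000543). Hand1 was called lower at day 8 and higher at day 12, when it averaged 40.7 ± 2.84 FPKM in knockout and 22.1 ± 2.95 FPKM in control bodies (SD, n = 3 each, log2 fold change 0.86, limma adjusted p = 0.00481).

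Among the factors that bind the sequences shown above, named after their values were seen, Srf averaged 11.1 ± 1.24 FPKM in knockout and 11.3 ± 2.05 FPKM in control bodies at day 8 (SD, n = 3 each, log2 fold change -0.01, SE 0.16, limma adjusted p = 0.979). Mef2c averaged 7.59 ± 1.59 FPKM in knockout and 26.3 ± 4.14 FPKM in control bodies (SD, n = 3 each, log2 fold change -1.67, limma adjusted p = 0.000623). The other MEF2 genes measured were not called on any of the 3 days. At day 8 Mef2d averaged 21.2 ± 1.79 FPKM in knockout and 25.7 ± 2.29 FPKM in control bodies (SD, n = 3 each, limma adjusted p = 0.335), and Mef2a lay between 11.9 and 12.9 FPKM in knockout and between 15.0 and 16.7 FPKM in control bodies (log2 fold change -0.33, limma adjusted p = 0.210). Myocd, the heart and smooth muscle partner of serum response factor, averaged 7.94 ± 0.761 FPKM in knockout and 18.1 ± 0.695 FPKM in control bodies (SD, n = 3 each, log2 fold change -1.10, limma adjusted p = 0.00159). At day 12 neither Mef2c nor Myocd was called (limma adjusted p = 0.243 and 0.183). The sequences shown also hold an AGATAA match, in Myom1. Of the GATA genes on the list, Gata4, Gata5 and Gata6 stood at 59.0%, 31.1% and 43.1% of the control mean at day 8.

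Markers of other cell types also differed between the lines, and their part in the results above was not tested. Their counts stand beside the same shares of all genes, 2.00%, 5.12% and 3.48% lower and 1.28%, 15.0% and 3.22% higher at days 8, 10 and 12. The summed FPKM of the 5 cardiomyocyte genes was 125 to 171 in knockout and 756 to 950 in control bodies at day 8, and 251 to 282 in knockout and 614 to 669 in control bodies at day 12. Of 7 endothelial genes, 4, 5 and 2 were called lower at days 8, 10 and 12, and their sum was 61.5 to 71.6 FPKM in knockout and 103 to 105 FPKM in control bodies at day 8. Of 7 endoderm genes, 0, 4 and 1 were called lower and 0, 0 and 1 higher, and at day 10 their sum was 266 to 302 FPKM in knockout and 519 to 877 FPKM in control bodies. Of 7 pluripotency genes, 3, 5 and 0 were called higher, and at day 10 their sum was 117 to 157 FPKM in knockout and 35.9 to 62.8 FPKM in control bodies.

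Neural, smooth muscle and skeletal muscle genes were counted in the same way, beside the same shares of all genes. Of the 4 neural genes tested, 1, 1 and 0 were called higher and 0 lower. The sum of the 5 on the list was 61.5 to 72.4 FPKM in knockout and 46.2 to 49.7 FPKM in control bodies at day 8. Sox2 held the most of it, at 35.3 ± 5.33 FPKM in knockout and 25.8 ± 1.68 FPKM in control bodies (SD, n = 3 each), and was not called. In undifferentiated cells at day 0 the sum was 179 to 196 FPKM in knockout and 172 to 182 FPKM in control, so it does not measure neural cells alone. Of the 6 smooth muscle genes tested, 1, 2 and 0 were called lower and 1, 0 and 0 higher. The sum of the 7 on the list was 457 to 611 FPKM in knockout and 466 to 591 FPKM in control bodies at day 8. Skeletal muscle shares many of the 10 genes. The sum of 12 of its markers was 2.19 to 2.62 FPKM in knockout and 1.96 to 2.47 FPKM in control bodies at day 8, and the groups overlapped. It was 2.31 to 2.74 FPKM in knockout and 1.06 to 1.67 FPKM in control bodies at day 10, and 3.74 to 4.50 FPKM in knockout and 1.56 to 2.99 FPKM in control bodies at day 12, without overlap. In stem cells at day 0 the sum was 12.1 to 13.9 FPKM in knockout and 8.47 to 10.1 FPKM in control. It therefore does not measure skeletal muscle alone. The marker Actn3 held the most of it at day 10 and was not called (log2 fold change 0.55, limma adjusted p = 0.0736). At days 8, 10 and 12, 1, 1 and 2 of the 12 passed the filter, and 0, 0 and 1 were called. The 1 called was Pax3, also a gene of neural crest and neural tube, which was higher at day 12, at 1.87 ± 0.215 FPKM in knockout and 0.708 ± 0.143 FPKM in control bodies (SD, n = 3 each, log2 fold change 0.75, limma adjusted p = 0.0428). At day 8 Myod1, the skeletal muscle determination factor, was listed at 0 in 2 of 3 libraries of each line, with a highest value of 0.296 FPKM in the knockout and 0.0929 FPKM in the control. The 10 genes lie on 8 chromosomes, whose median log2 fold changes at days 8, 10 and 12 were within -0.015 and 0.070 of those of the other chromosomes. Earlier, chromosome 6, which holds Smyd1, was shifted by -0.25 at day 0 and -0.26 at day 3 relative to the other chromosomes.

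The 9 genes other than Ttn were high and low in the same libraries. Pearson's r on log2(FPKM + 1) lay between 0.913 and 0.990 over their 36 pairs. These libraries are in large part 18 early ones near 0 and 18 later ones, so a high r is shared by any gene that comes on late, and it is given as a description. Ttn correlated with the others at r of 0.15 to 0.34. Of 13023 genes ranked, the 10 most like the mean of the 9 were Trim55, Mylk3, Asb2, Myh6, Arhgap31, Sh3bgr, Tmod1, Ryr2, Popdc2 and Tnnt2, with r between 0.982 and 0.992. The nearest single gene was Asb2 for Mybpc3, Hspb7 for Actn2, Tbx5 for Hspb7, Myh6 for Ldb3, Angpt1 for Csrp3, Trim55 for Myom1, Alpk2 for Xirp1, Myl4 for Smyd1 and Tnnt2 for Nebl.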

How the data were processed

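The authors sequenced ScriptSeq Complete Gold libraries of total RNA. The labels name 2 different sequencers. The submitters' processing notes name TopHat, Cufflinks and mm9; versions and annotation are not given in the sources used here. The authors deposited FPKM in 6 tables, 1 per day, and whether libraries or tables were scaled to each other is not stated. A symbol with 2 entries (Tead1, Tnnc1, Nrap) was read from the more abundant one.

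Each day was tested within its table on log2(FPKM + 1), for genes whose 6 libraries averaged at least 1 FPKM, with limma 3.58.1 in R 4.3.3 (lmFit, eBayes with trend), two-sided, Benjamini-Hochberg over all genes tested, threshold 0.05. Exact permutation of 3 against 3 cannot go below 0.1. The code was tested on simulated data. Alternatives were another pseudocount, other filters, median-ratio rescaling, no trend, a replicate block and leaving out each library. Python 3.11.15, pandas 2.3.3, numpy 2.4.6 and matplotlib 3.10.9 were used.

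The 10 genes and all lists were chosen with earlier results of these data known. Named were all 10 genes, up to 4 of the most abundant genes of each list per day, and the 10 most similar genes; others are said to be outside this rule or illustrate a count. Promoter sequences are from RefSeq, GRCm38.p6, and overlaps and chromosomes from the GENCODE annotation of GRCm38; no coordinates were converted.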

Additional observations from a re-analysis of the deposited data

Results flagged for a closer look

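In 5 genes the knockout effect itself differed between the days by the limma contrast of day 12 minus day 8 (adjusted p under 0.05 over all genes tested). The log2 difference was 1.32 for Actn2, 1.18 for Ldb3, 1.03 for Csrp3, 1.17 for Myom1 and 1.54 for Smyd1. In each the day 12 effect was nearer 0 than the day 8 effect.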

How the results depend on the processing

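At days 8 and 10, the calls of the 9 genes other than Ttn held in all 54 results with 1 library left out and in all 52 and 53 results with another pseudocount, filter, scaling, no trend or the block. At day 12, 45 of 54 and 48 of 53 held. Without a filter on low values, which tests more genes, 4 of the 10 were called lower at day 12 (Actn2, Ldb3, Myom1 and Xirp1 were lost). No day had all 3 same-numbered pairs of libraries correlated above 0.1, so the numbers were not taken to pair samples; under the replicate block Xirp1 at day 12 was lost (adjusted p = 0.0651) and 7 were called.

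Counts over all genes moved more. Without the filter they were 774, 2, 424, 136, 775 and 218 at days 0, 3, 5, 8, 10 and 12. With the block they were 824 at day 0, 342 at day 3, 464 at day 12 and 131 between days. Rescaled, they were 551 at day 3, 730 at day 8 and 415 between days, and at a mean of 5 FPKM 248 at day 8. Rescaling also moved the split of calls to 212 higher and 339 lower at day 3 (130 and 80 as deposited), 647 and 866 at day 5 (880 and 413), 1255 and 1467 at day 10 (1946 and 663) and 367 and 632 at day 12 (422 and 456). Leaving out 1 library gave 797 to 1041 at day 0, 186 to 332 at day 3, 833 to 996 at day 5, 190 to 665 at day 8, 1540 to 2574 at day 10, 317 to 583 at day 12 and 136 to 255 between days, and 2 to 4 of the 10 genes between days.

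Signs turned for Ttn and, near 0, for Actn2 at day 3 (-0.12 to 0.061 with 1 library left out). Ttn ran from -0.68 to 2.45 at day 8, from -0.16 to 2.54 at day 12 and from -1.72 to 2.17 for the difference, and was -2.58 and -1.59 with its zeros missing, where 1 control library is left on each day and no direction is read. The median level of the 9 genes in percent of control at day 8 ran from 14.8 to 18.2. Depth is unknown and limits the low values of Hspb7 and Xirp1.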
